A study of Mus musculus with 12 samples.

Results

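The miRNAs described here are the mature miRNAs of the miR-297, miR-466, miR-467 and miR-669 families, most of which are made from one large cluster in an intron of the mouse gene Sfmbt2. They were chosen by name alone, as every entry of the deposited small RNA table whose name starts with one of these 4 family numbers, which gave 80 of 1978 listed mature miRNAs. RNA came from the hippocampus of male mice aged 4 months. The APP/PS1 mice carry the APPswe and PSEN1dE9 transgenes, a mutant amyloid precursor protein and a mutant presenilin, and are a model of amyloid deposition in Alzheimer's disease. They were set against wild-type (WT) male littermates of the same age. The labels do not name the promoter of the transgenes. Small RNA libraries gave 3 columns per genotype, headed APP1, APP2 and APP3 for APP/PS1 and WT1, WT2 and WT4 for WT, and total RNA libraries of the same design gave the host gene.

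A miRNA is cut from a hairpin precursor, first by Drosha with Dgcr8 in the nucleus and then by Dicer1 in the cytoplasm, and the strand from the left (5p) or right (3p) arm of the hairpin is loaded into an Argonaute protein. The loaded strand finds its target messages mainly through its seed, the bases from position 2 to position 8. The Sfmbt2 cluster is an expansion found in mouse and rat. It is best known from the placenta, where Sfmbt2, which encodes a Polycomb group protein, is expressed from the paternal allele. Its members are rich in alternating U and G or A and C bases and closely resemble each other, so a short read can match several of them.

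In the RefSeq annotation of GRCm38.p6, which is the mm10 build named in the submitters' processing notes, 82 hairpins carry a name of these families. Of these, 72 lay inside Sfmbt2 (chromosome 2, 10370440 to 10595253), and no miRNA of another name was annotated inside that gene. The hairpins spanned 51.6 kb, from 10466663 to 10518279, and began 96.2 kb from the start of the gene. Their make-up was 29 miR-669, 24 miR-466, 14 miR-467 and 5 miR-297 hairpins, with a median of 296 bases from one hairpin start to the next. The cluster is repetitive: a miR-467 hairpin followed by a miR-466 and then a miR-669 hairpin occurred 12 times. The 10 miR-467a hairpins lay a median of 2462 bases apart, with a range of 2413 to 4880 bases. The other 10 hairpins were on chromosomes 3, 5, 7, 9, 10, 11 and 13. Of these, Mir466i lay within the bounds of Cdk13, Mir466q of Tnik, Mir467f of Fxr2, Mir467g of Grk4 and Mir669n of Slc30a7, and Mir466k within the bounds of the noncoding gene Gm31419.

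**Figure D1:**
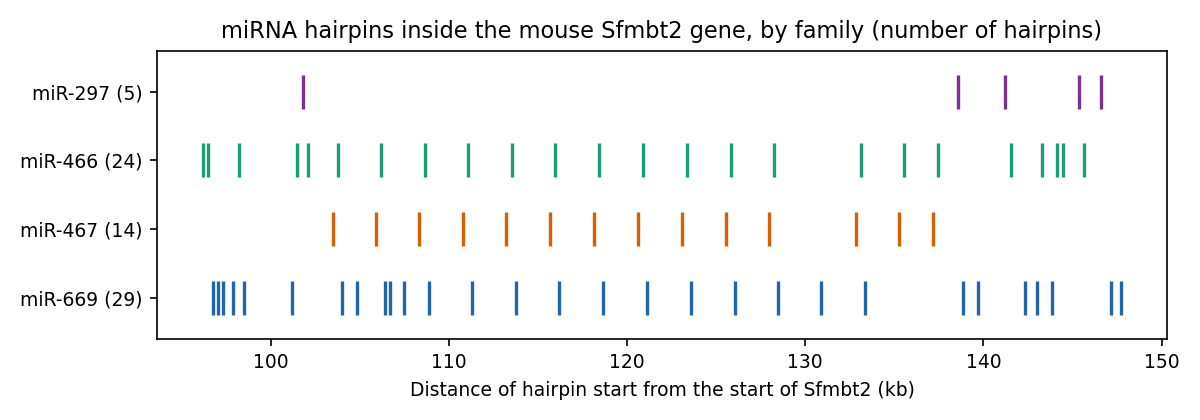
Each vertical mark is 1 hairpin of the Sfmbt2 cluster, plotted by the distance of its start from the start of the gene in kb, with 1 row per family. The miR-467 marks recur through the middle of the cluster, 12 of 14 of them followed by a miR-466 and then a miR-669 mark, while most miR-297 marks lie in the last part of the cluster.

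Sequences were taken from RefSeq tables of GRCm38.p6, in which 8 of the 80 members were matched by name. All 8 come from hairpins outside Sfmbt2, and they are shown because they let the repeat letters of these 8 members be read directly. No mature sequence of a member made inside Sfmbt2 was matched, so the letters of the most abundant members were not read. They are given 5′ to 3′ with the seed in capitals, in order of mean count.
miR-466i-3p: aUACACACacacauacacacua
miR-466k: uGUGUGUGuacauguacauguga
miR-466j: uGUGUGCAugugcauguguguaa
miR-466q: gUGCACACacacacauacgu
miR-467h: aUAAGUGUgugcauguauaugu
miR-467f: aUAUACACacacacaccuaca
miR-669n: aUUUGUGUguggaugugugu
miR-467g: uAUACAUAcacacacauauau
No pair of the 8 shared a seed. The letters UGUGUG, or their reverse complement CACACA, occurred in all 8 of these sequences and in 40 of 1679 mature miRNAs (2.38%) of the RefSeq table, a count that includes these 8. The seed of miR-467h was also that of miR-668-5p, and the other 7 seeds belonged to no other miRNA of that table.

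Precursors show the same letters on a longer scale, and 2 are printed, 5′ to 3′, for that reason. In the first the mature miRNA is in capitals (chr3:85467377-85467498, plus strand). In the second, the miR-297 precursor outside the cluster, the capitals mark its longest tandem repeat of a unit of 2 to 4 bases, which is 20 bases long (chr7:10958437-10958512, minus strand).
Mir466k: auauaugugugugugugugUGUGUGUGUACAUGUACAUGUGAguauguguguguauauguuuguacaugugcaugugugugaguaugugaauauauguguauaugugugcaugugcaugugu
Mir297-1: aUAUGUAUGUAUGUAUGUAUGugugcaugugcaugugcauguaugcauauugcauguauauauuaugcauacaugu
The longest such repeat in the Mir466k precursor was 22 bases of alternating U and G.

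The small RNA columns summed to between 15593728 and 21631169 counts. Column APP3 stood apart: the chi-square statistic per degree of freedom between it and each other column was 1008 to 1462, against 237 to 623 between the others, and its TMM scaling factor was 0.85 against 0.99 to 1.08. The muscle miRNA miR-206-3p was at 643 CPM (counts for each 1000000 of the TMM-scaled library size) in APP3, and between 3.09 and 6.54 CPM in the other 5 columns. The 6 neural marker miRNAs, among them miR-9-5p and miR-124-3p, were abundant in all columns, with summed levels of 210863 to 267748 CPM for APP/PS1 and 226004 to 254829 CPM in WT. Of the other marker lists, the choroid plexus pair summed to 2819 to 5195 CPM for APP/PS1 and 2435 to 3696 CPM in WT, and the erythroid list to 381 to 1488 CPM for APP/PS1 and 415 to 574 CPM in WT. The top of the erythroid range was APP3, mostly through miR-486a-5p, at 1065 CPM there and 161 to 208 CPM in the other 5 columns. miR-451a, of the same list, was at 385 CPM in APP3 and 345 CPM in WT4. The oligodendrocyte pair summed to 1734 to 1825 CPM for APP/PS1 and 1643 to 2373 CPM in WT, the endothelial pair to 10487 to 13276 CPM for APP/PS1 and 10169 to 13723 CPM in WT, and the myeloid list to 94.0 to 105.9 CPM for APP/PS1 and 105.8 to 110.4 CPM in WT. The part of these differences in the results below was not tested.

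The 4 families made up a small share of hippocampal miRNA counts, most of it from miR-467. Summed over all 80 members, they took 340, 368 and 321 CPM of the plain column total in APP1, APP2 and APP3, against 427, 383 and 508 in WT1, WT2 and WT4. The 3 APP/PS1 sums lay below the 3 WT sums, at 343 ± 23.3 against 439 ± 63.6 CPM of the plain total (SD, n = 3 each), a ratio of 0.78. With TMM scaling the sums were 343, 342 and 378 CPM in APP1, APP2 and APP3 and 399, 373 and 505 CPM in WT1, WT2 and WT4, so that APP3 then lay above WT2 and the groups overlapped. Some members have equal counts, which may stand for the same reads, and no test was made on the sum. Of the summed counts, in which the nearly equal miR-467a-5p and miR-467b-5p are both included, miR-467 held 64.1%, miR-669 18.1%, miR-466 14.4% and miR-297 3.44%.

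With identical counts taken once, each family's sum was set against the plain column total. miR-467 had 213, 248 and 176 CPM in APP1, APP2 and APP3, and 260.1, 255 and 316 CPM in WT1, WT2 and WT4. These sums still hold both miR-467a-5p and miR-467b-5p, whose counts differ only in WT4. Most of the miR-467 level may thus be the same reads added more than once. miR-669 had 45.6, 48.5 and 50.3 CPM in APP1, APP2 and APP3, and 58.6, 48.6 and 71.9 CPM in WT1, WT2 and WT4. In miR-467 no APP/PS1 column reached the WT columns, and in miR-669 APP3 lay above WT2. miR-466 had 32.7, 29.3 and 37.7 CPM in APP1, APP2 and APP3, and 42.3, 34.1 and 49.5 CPM in WT1, WT2 and WT4. miR-297 had 5.39, 3.57 and 5.17 CPM in APP1, APP2 and APP3, and 7.26, 4.81 and 7.79 CPM in WT1, WT2 and WT4. Both of these overlapped between genotypes, and WT4 was the highest column in all 4 families.

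By position, the 64 members whose named hairpins all lie inside Sfmbt2 held 95.04% of the members' counts, with repeated counts included. Among them, miR-467a-5p and miR-467b-5p, which share nearly all their counts, had 10812 and 10810 counts summed over the columns. miR-297b-3p and miR-297c-3p also stand among the 64, but their counts equal those of miR-297a-3p, which has a hairpin elsewhere too. The 9 members with hairpins only elsewhere held 1.63%, and the most abundant of these was miR-466i-5p with a mean of 80.8 counts per column. The 5 members with hairpins in both places held 1.91%, and miR-466a-3p and miR-466a-5p, for which no hairpin matched by name, held 1.42%. A hairpin named Mir466, with no letter, lies inside Sfmbt2 and was not assigned to any member. The share from inside Sfmbt2 may therefore be higher, while the shared miR-297 counts may make it lower. The cluster copies of a miRNA with many hairpins, such as the 10 of miR-467a, cannot be told apart from mature counts.

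Detection was uneven. Of the 80 members, 4 were at 0 in every column, 14 had a mean count above 0 but under 1, and 44 had a mean count of at least 10. Between 63 and 68 members had at least 1 count in a column. A count of 0 in a column allows up to 3 counts there, a limit that covers counting error only. Members of all 4 families were present at levels that could be tested: 19 of 31 miR-466, 14 of 30 miR-669, 8 of 13 miR-467 and 4 of 6 miR-297 entries passed edgeR's expression filter, 45 in all.

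Many members were not separate measurements. Counts equal in all 6 columns tied 22 of the 76 detected members into 10 sets, which left 64 distinct count profiles. The abundant sets were miR-297a-3p, miR-297b-3p and miR-297c-3p; miR-466b-3p, miR-466c-3p and miR-466p-3p; miR-466a-3p and miR-466e-3p; miR-467a-3p and miR-467d-3p; miR-669a-3p and miR-669o-3p; and miR-669a-5p and miR-669p-5p. Smaller sets joined miR-466b-5p with miR-466o-5p, miR-466d-5p with miR-466n-5p, miR-466m-5p with miR-669m-5p, and miR-669d-3p with miR-669d-2-3p. At a mean count of at least 10, 18 of 44 members (40.9%) stood in such a set, against 10 of 659 other miRNAs (1.52%), and no member of that level had the counts of a miRNA outside the families. Further members came close: miR-467a-5p and miR-467b-5p had the same counts in 5 columns and 2188 and 2186 counts in WT4, so the table hardly separates them, and how reads matching both were counted is not stated. If members whose counts differed by at most 5% or 5 counts in every column were counted once, the summed level was 204 ± 13.7 CPM of the plain total in APP/PS1 and 263 ± 38.4 in WT (SD, n = 3 each).

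The most abundant members were 5p strands of miR-467. miR-467a-5p had 91.1, 98.8 and 82.5 CPM in APP1, APP2 and APP3, and 101.5, 105.0 and 131 CPM in WT1, WT2 and WT4. It ranked 209th of the 1978 listed miRNAs by mean count. All 3 APP/PS1 columns were below all 3 WT columns, and WT4 was highest. The log2 fold change of APP/PS1 over WT was -0.31 (SE 0.18, 95% interval -0.72 to 0.10), with an adjusted p of 0.958 in edgeR's quasi-likelihood test, so the difference did not pass. Without WT4 the log2 fold change was -0.17.
miR-669c-5p, the most abundant strand of its family, had 18.6, 19.3 and 19.96 CPM in APP1, APP2 and APP3 and 24.7, 23.0 and 31.0 CPM in WT1, WT2 and WT4. Again the groups did not overlap and WT4 was highest. Its log2 fold change was -0.44 (SE 0.19) with an adjusted p of 0.958 in edgeR's test (unadjusted p = 0.0433). Without WT4 the log2 fold change was -0.30. No other tested member had an unadjusted p under 0.05.
miR-467c-5p had 16.3, 19.0 and 21.8 CPM in APP1, APP2 and APP3 and 20.1, 21.7 and 29.3 CPM in WT1, WT2 and WT4. miR-467e-5p had 6.54, 6.17 and 10.3 CPM in APP1, APP2 and APP3 and 8.90, 8.58 and 12.1 CPM in WT1, WT2 and WT4. For both, APP3 reached into the WT range, and the log2 fold change was -0.32 (SE 0.22) for miR-467c-5p and -0.36 (SE 0.26) for miR-467e-5p. Without WT4 it was -0.12 for miR-467c-5p and -0.18 for miR-467e-5p, and without APP3 it was -0.60 for miR-467e-5p.

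**Figure D2:**
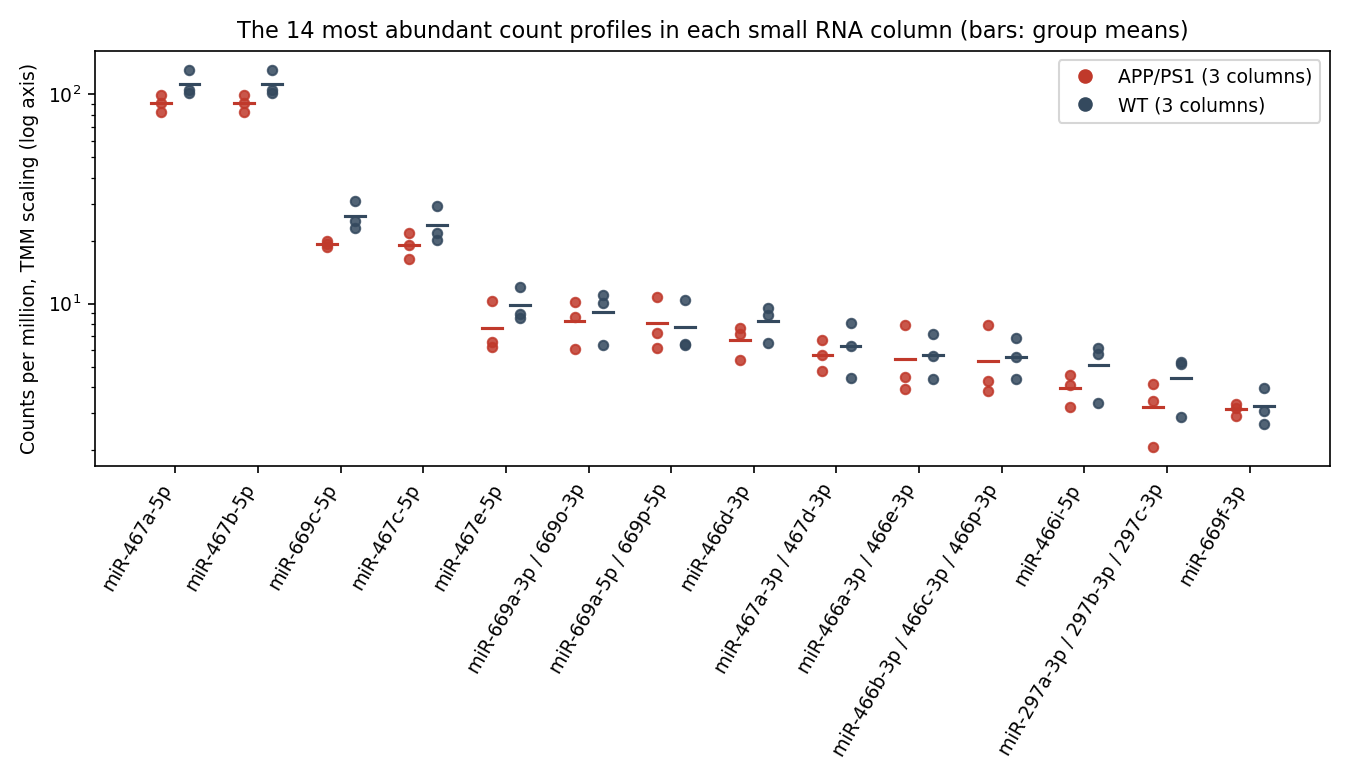
CPM with TMM scaling, on a log axis, of the 14 most abundant count profiles of the 4 families, with each point 1 column and each short bar the mean of 3 columns. miR-467a-5p and miR-467b-5p stand near 100 CPM and all others below 32 CPM, and APP/PS1 (left of each pair) and WT overlap for most profiles further right.

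Other abundant members showed wide overlap. The counts shared by miR-669a-3p and miR-669o-3p gave 8.61, 6.06 and 10.2 CPM in APP1, APP2 and APP3 and 11.0, 6.31 and 10.02 CPM in WT1, WT2 and WT4, a log2 fold change of -0.14 (SE 0.28). The counts shared by miR-669a-5p and miR-669p-5p gave 6.15, 7.20 and 10.8 CPM in APP1, APP2 and APP3 and 6.31, 6.42 and 10.4 CPM in WT1, WT2 and WT4. Their log2 fold change was 0.06 (SE 0.29), and it was negative with column totals or upper quartile scaling in place of TMM. In these 2 sets the high columns were not those of 1 genotype. miR-466d-3p had 7.12, 5.37 and 7.67 CPM in APP1, APP2 and APP3 and 8.77, 6.47 and 9.54 CPM in WT1, WT2 and WT4, a log2 fold change of -0.30 (SE 0.23) that was -0.17 without APP2 and -0.18 without WT4.

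Adjusted over the 703 miRNAs tested, no member reached edgeR's threshold. None of the 703 passed (0% called), DESeq2 and limma-voom also called 0, and 25 miRNAs (3.56%) had an unadjusted p under 0.05 in edgeR's test, of which 12 were lower (1.71%) and 13 higher (1.85%) in APP/PS1. Of the members, 1 of 45 did, which is near that background. Groups did not overlap for 5 members, all with APP/PS1 below WT, where 4.41% of all tested miRNAs lay that way and 2.70% the other way. These 5 were miR-467a-5p and miR-467b-5p, which share nearly all their counts, miR-669c-5p, miR-466c-5p and miR-466h-3p, which passed the expression filter only through its WT columns.

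Values of most members lay lower in APP/PS1. Log2 fold changes were negative for 36 of 45 tested members, or 28 of their 35 distinct profiles, where 54.1% of all tested miRNAs were negative. The median was -0.15 over the members, -0.28 over their 35 distinct profiles and -0.03 over all tested miRNAs. The members ranged from -0.92 to 0.61. Some negative members had too few counts in APP/PS1 columns and needed their WT columns to pass the expression filter. These were miR-466h-3p, miR-466e-5p, miR-466h-5p, miR-467e-3p, miR-669p-3p, miR-669l-5p and the pair at -0.92, miR-466d-5p and miR-466n-5p. The positive miR-466p-5p needed its WT columns too. The filter thus took part in setting the share of negative members. With a filter on a mean count of at least 10 over all columns, 36 of 44 members were negative, where 54.1% of all tested miRNAs were. By family, 4 of 4 miR-297, 15 of 19 miR-466, 7 of 8 miR-467 and 10 of 14 miR-669 members were negative. These are not separate measurements: the tested members held 2 distinct profiles in miR-297, 14 in miR-466, 7 in miR-467 and 12 in miR-669. Column WT4 moved this share most: without it, 24 of 45 members (53.3%) were negative, where 50.8% of all tested miRNAs were, and the members' median was -0.06. Without APP2 it was 26 of 45 with a median of -0.07, and without APP3, the column that stood apart, it was 42 of 45 with a median of -0.40. Scaling moved it too: column totals alone gave 41 of 45 negative with a median of -0.26, and they moved the median of all tested miRNAs to -0.11.

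**Figure D3:**
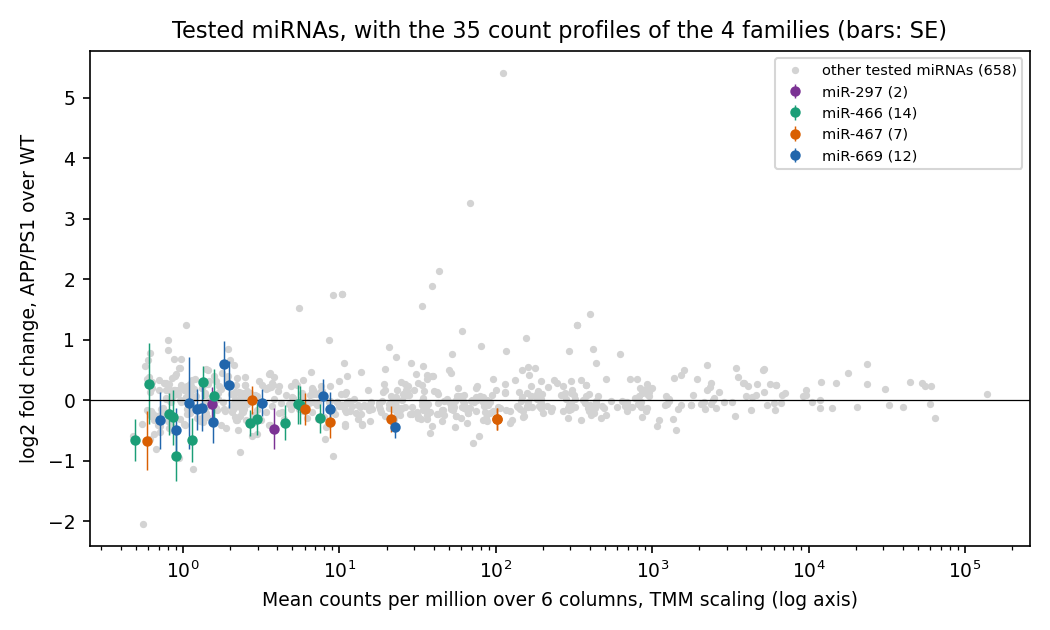
Log2 fold change of APP/PS1 over WT against mean CPM on a log axis, with grey points for the other tested miRNAs and coloured points, with SE bars, for the 35 distinct count profiles of the 4 families. The coloured points lie between -0.92 and 0.61, mostly below 0, inside the cloud of other miRNAs of the same level.

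The column values show where the spread came from. On a log2 scale, relative to each profile's own mean over the 6 columns, all 35 profiles were above their mean in WT4, with a median of 0.43. The medians of the other columns were -0.13 in APP1, -0.32 in APP2, 0.07 in APP3, 0.05 in WT1 and -0.13 in WT2. WT1 and WT2 thus lay within the range of the APP/PS1 columns, and the median over all tested miRNAs was between -0.03 and 0.02 in each column. As a description over 6 columns that share library depth and scaling, the correlation between 2 profiles had a median of 0.44, with quartiles of 0.13 and 0.71.

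**Figure D4:**
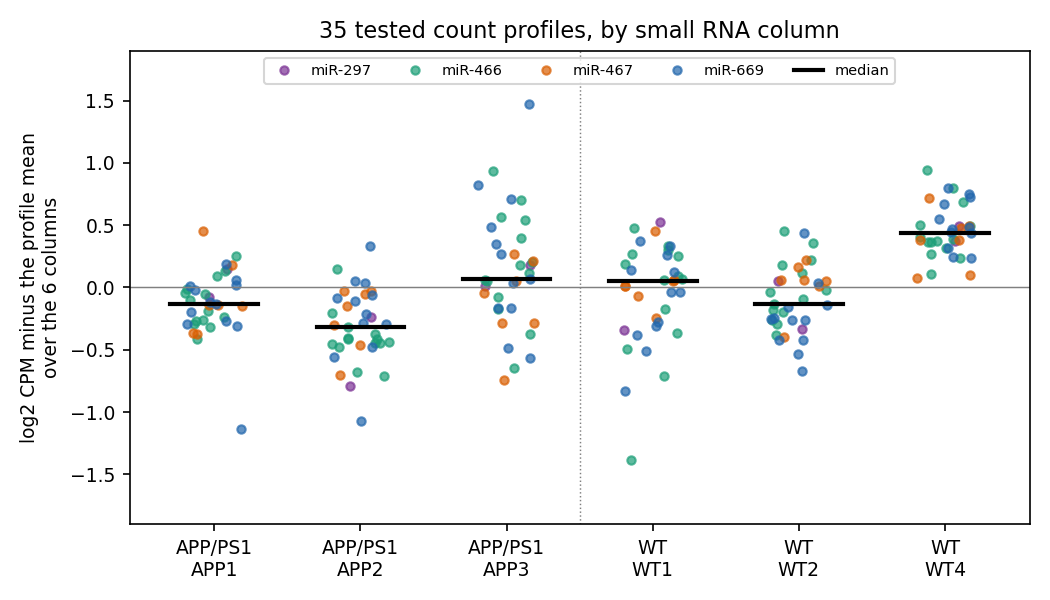
Each point is 1 of 35 distinct count profiles, plotted as its log2 CPM minus its own mean over the 6 columns, with the black bar marking the median of the column. WT4 lies above 0 for all 35 profiles, APP2 has the lowest median and APP3 the widest scatter.

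Members with the smallest p among those lower in APP/PS1 were, besides miR-669c-5p, of low count. The counts shared by miR-466d-5p and miR-466n-5p were 14, 8 and 7 in APP1, APP2 and APP3 and 24, 15 and 28 in WT1, WT2 and WT4, a log2 fold change of -0.92 (SE 0.42) and the lowest of all members. Without WT4 it was -0.58. With under 10 counts in APP2 and APP3, miR-466d-5p and miR-466n-5p needed their WT columns to pass the filter. miR-466h-3p had 6, 7 and 5 counts in APP1, APP2 and APP3 and 13, 12 and 10 in WT1, WT2 and WT4, a log2 fold change of -0.66 (SE 0.35). At a mean of under 10 counts it passed the filter only through its higher WT values. miR-466i-3p, the sequence printed first above, had 13, 11 and 17 counts in APP1, APP2 and APP3 and 32, 18 and 30 in WT1, WT2 and WT4, a log2 fold change of -0.66 (SE 0.36) that was -0.43 without WT4. It comes from chromosome 13, outside the cluster, and its other strand, miR-466i-5p, had a log2 fold change of -0.37 (SE 0.28).

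The 9 tested members with positive log2 fold changes were as uncertain. miR-669e-5p had 26, 31 and 45 counts in APP1, APP2 and APP3 and 21, 26 and 34 in WT1, WT2 and WT4. Its log2 fold change of 0.61 (SE 0.38) was the highest of all members, with mean levels of 2.19 ± 0.80 CPM in the APP/PS1 columns and 1.45 ± 0.57 CPM in the WT columns (SD, n = 3 each). The groups overlapped, as WT4 exceeded APP1 and APP2, and the log2 fold change was 0.31 without APP3, 0.35 without WT1 and 0.93 without WT4. miR-466g had 22, 26 and 22 counts in APP1, APP2 and APP3 and 21, 24 and 24 in WT1, WT2 and WT4, a log2 fold change of 0.30 (SE 0.28) that was 0.12 without WT1 and 0.44 without WT4. The log2 fold change was 0.26 (SE 0.39) for miR-669o-5p and 0.27 (SE 0.67) for miR-466p-5p, and both were highest in APP3. miR-669l-5p, which is not one of these 9 and was chosen after its values were seen, varied widely. It had 5, 6 and 37 counts in APP1, APP2 and APP3 and 13, 22 and 26 in WT1, WT2 and WT4, a log2 fold change of -0.05 (SE 0.76).

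The spread between columns is given beside counting error. The 9 profiles with a mean of over 100 counts had a median coefficient of variation within a genotype of 18.6%, where counting alone gives 8.05%. The 16 tested profiles with a mean under 30 counts had 31.2%, where counting alone gives 24.2%. Counting error grows as counts fall and takes reads as independent molecules, so the 2 groups of profiles were not compared further.

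Arm use was described by name, with no test between families, and a name such as miR-467a covers several hairpins. Among the 29 hairpin names with at least 60 counts over the 2 arms, the 5p arm held more counts for 4 of 5 miR-467 and 7 of 10 miR-669 names. The 3p arm held more for 7 of 11 miR-466 and 3 of 3 miR-297 names. These are not separate counts: the 7 miR-466 names held 4 distinct 3p sums, and the 3 miR-297 names shared 1. miR-467a gave 94.4% of its counts from the 5p arm, with 92.6% to 96.0% over the 6 columns, and miR-669c 99.9%. miR-466d gave 10.8% from the 5p arm and miR-297b 27.9%. miR-466i, on chromosome 13, went the other way from most of its family, with 80.0% from the 5p arm and 76.2% to 83.6% over the columns. Because many strands share their counts with another miRNA, the shares of miR-467d (31.0%) and miR-669o (17.8%), whose 3p counts were identical to those of miR-467a-3p and miR-669a-3p, and those of the miR-297 names, cannot be assigned to 1 hairpin. The same limit holds for miR-467a, whose 3p counts are those of miR-467d-3p and whose 5p counts nearly equal those of miR-467b-5p. It also holds for miR-466d, whose 5p counts are those of miR-466n-5p.

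**Figure D5:**
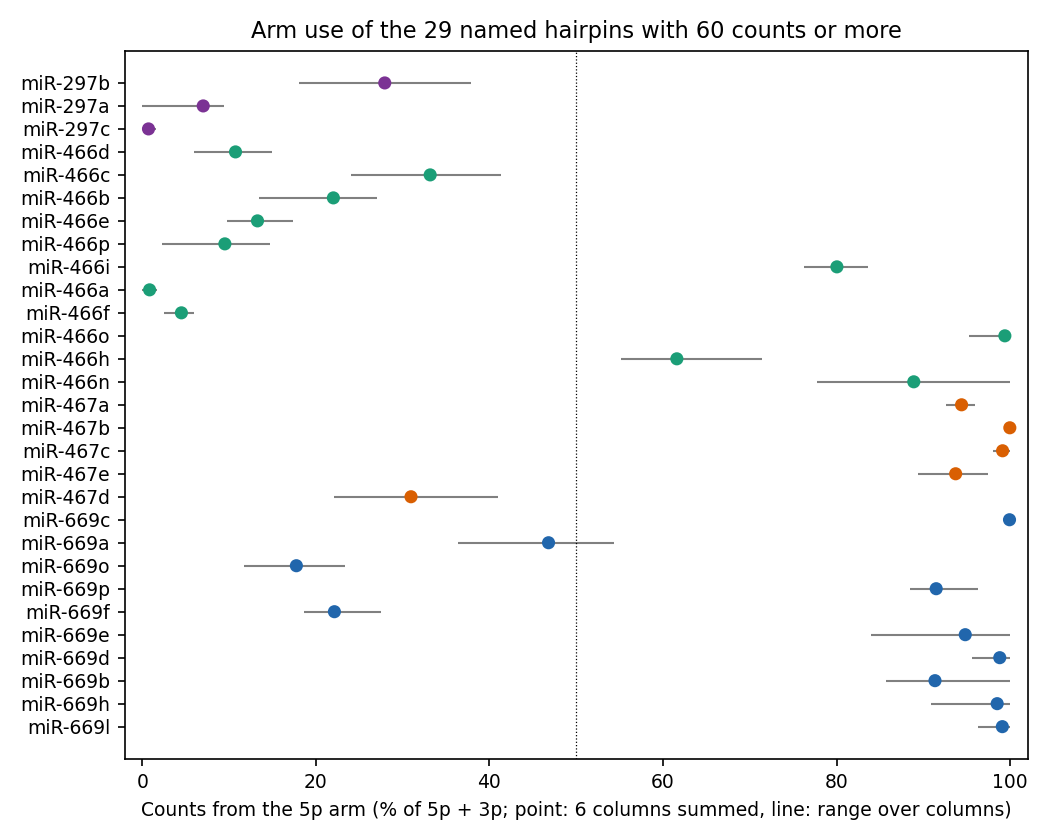
For each named hairpin with at least 60 counts, the point gives the 5p share of its counts in percent with the 6 columns summed, coloured by family, and the line gives the range over columns. Apart from miR-467d at 31.0%, miR-467 points lie near the right edge, as do most miR-669 points, with miR-297 and most miR-466 points at the left, and the lines are short against the differences between hairpins.

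The host gene was measured in the total RNA libraries, whose values are estimated counts. Sfmbt2 was at 6.09, 6.46 and 4.60 CPM in APP/PS1 replicates 1, 2 and 3, and 6.69, 6.95 and 9.62 CPM in WT replicates 1, 2 and 4. All 3 APP/PS1 values were below the 3 WT values, and the groups did not overlap, in either direction, for 10.4% of all 18060 genes tested. Mean levels were 5.72 ± 0.98 CPM for the APP/PS1 libraries and 7.75 ± 1.62 CPM for the WT libraries (SD, n = 3 per genotype). Its log2 fold change was -0.44 (SE 0.20, 95% interval -0.92 to 0.05) with an adjusted p of 0.887 in edgeR's test (unadjusted p = 0.069), so it did not pass, where 1 gene (0.00554%) did. WT replicate 4 was the highest library, and without it the log2 fold change was -0.25. The labels do not link the mice of both library types, so host and miRNAs were not correlated. The total RNA table also lists 81 of the hairpins by symbol, of which 35 were at 0 in every library and the highest had a mean of 42.2 estimated counts.

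Genes that make or use miRNAs did not pass the test either. The list of such genes had 22 in the table, of which 21 were tested, 15 with positive and 6 with negative log2 fold changes, and 0 passed edgeR's test over all genes. None had an unadjusted p under 0.05 in edgeR's test, where 3.41% of all genes did, and the median log2 fold change was 0.04 against 0.01 over all genes. Drosha, which makes the first cut, was at 157, 158 and 147 CPM for APP/PS1 and 182, 149 and 165 CPM in WT, a log2 fold change of -0.10 (SE 0.09). Dicer1, which makes the second, had 0.06 (SE 0.08), and Ago2, the Argonaute protein that can cleave targets, 0.04 (SE 0.07). The smallest p belonged to Ddx5, an RNA helicase of the Drosha complex, at 0.30 (SE 0.14), Ago3 at 0.14 (SE 0.07), and Tarbp2, a partner of Dicer, at 0.31 (SE 0.19). Ddx5 and Tarbp2 were highest in APP/PS1 replicate 3. Of 5 listed chromatin genes, Sfmbt1, Yy1, Ezh2, Eed and Suz12, 0 passed. Ezh2, the methyltransferase of the Polycomb complex, had 10.6, 9.53 and 27.0 CPM in APP/PS1 replicates 1, 2 and 3 and 9.89, 10.1 and 8.63 CPM in WT replicates 1, 2 and 4, so that its higher mean rested on replicate 3. Trophoblast genes were at or near 0: Prl3d1, Tpbpa and Gcm1 had 0 estimated counts in every library, and the 6 genes summed to 0.177 to 0.666 CPM for APP/PS1 and 0.0987 to 0.126 CPM in WT.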

How the data were processed

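The authors deposited raw counts per mature miRNA for 6 small RNA libraries. For 6 total RNA libraries they deposited values per gene that are whole numbers but are treated here as estimated counts. Per the submitters' processing notes, mm10, HISAT2, StringTie and DESeq were used, and the steps each served, the counting of reads that match several miRNAs and the versions are not stated there. The headings of the small RNA table name the genotype and a number that total RNA libraries also carry, so each column was assigned to its genotype only. The labels state 3 mice per genotype without tying each library to a mouse. The p-values therefore weigh the difference between genotypes against the spread between these samples.

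APP/PS1 was compared with WT by edgeR 4.0.16 (R 4.3.3) quasi-likelihood tests with TMM scaling, filterByExpr and no covariate. P-values were adjusted by Benjamini-Hochberg over all features of a table, with a threshold of 0.05. DESeq2 1.42.0 and limma-voom (limma 3.58.1) were alternatives. Only the edgeR test was checked on simulated data, separately for small RNA and total RNA. In each simulation 200 rows were changed, of 703 in small RNA and of 18060 in total RNA. In small RNA it recovered 62% of simulated 2-fold changes and 97% of 4-fold changes, with 7 false calls. For total RNA these shares were 34% and 87%, with 8 false calls. Recovery depends on the share of rows that change, so these values are not comparable between tables and do not carry over to the real data. Members described singly were the 10 most abundant tested ones and the 5 with the smallest p in each direction. Pathway genes described singly were those with the smallest p, and Drosha, Dicer1 and Ago2 were added for their roles. Members, lists and rules were chosen with earlier results of these data known.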

Additional observations from a re-analysis of the deposited data

How the results depend on the processing

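No member passed edgeR's threshold in any fit run, and among the 18 members described singly the sign changed for the 6 named below; other members were followed only as counts. Without a count filter 5 of 1420 miRNAs passed, none of them members, and leaving out 1 replicate gave 0 to 3. In total RNA, DESeq2 called 26 genes, the replicate block 2, and leaving out 1 replicate 0 to 6. With the replicate block, 0 members and 0 miRNAs passed, and the log2 fold change was -0.12 for Sfmbt2 and -0.12 for miR-467a-5p; same-numbered samples correlated at 0.21 and 0.24 in small RNA and 0.09 and -0.04 in total RNA, and with only 2 shared numbers they were not taken as pairs. The summed members were at 398 CPM in APP/PS1 and 510 in WT without miR-9-5p in the denominator, 298 in APP/PS1 and 386 in WT with identical counts taken once, and 204 in APP/PS1 and 263 in WT with near-identical counts taken once, an alternative chosen after seeing the data. The log2 fold change of miR-669a-5p and miR-669p-5p was -0.045 with library totals and -0.046 with upper quartile scaling. Leaving out 1 replicate gave -0.17 to 0.34 for these, -0.33 to 0.042 for miR-669a-3p and miR-669o-3p, -0.079 to 0.64 for miR-669o-5p and -0.28 to 0.61 for miR-466p-5p. The cause of these changes was not tested. Whether smaller differences of rare members could be detected with 3 columns per genotype was not tested.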
